A study of Mus musculus with 46 samples.

Results

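Long non-coding RNAs are transcripts that are processed much like messenger RNAs but are not translated into long proteins, and many act on chromatin, on splicing or as scaffolds for protein complexes. As a class they are known for low abundance and for expression restricted to few tissues. On the mouse array used here they are covered by probes that carry no gene name but the coordinates of a genomic region, so the measurement is of transcription from an interval and not of an annotated gene. The array held 16194 such region probes among 55681 probes in all, for 3543 regions on 20 chromosomes, with a median of 3 and a maximum of 20 probes per region. The regions ranged from 62 to 7128487 bases with a median of 7304 bases, and merging those that overlapped left 2226 loci. Coordinates below are those of the mm9 build, as the files give them. The name of a region ends in the letter F (8171 probes) or R (8010 probes), with 13 probes bearing neither, and the meaning of the letter is not given in the sources used here. Which genes, exons or introns lie in the regions was not analysed here, nor was the sequence of the probes.

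The samples were cecum and liver of male C57BL/6 mice, 12 weeks old at the start and single-housed, that were fed for 8 weeks. HFD supplied 45% of energy as fat and LFD 10%. In HFD + inulin, corn starch and cellulose, 5% by weight of each, were replaced by 10% of the fermentable fiber inulin. In HFD + inul PB they were replaced by 5% inulin esterified with propionate and 5% inulin esterified with butyrate. These short-chain fatty acids are released where the ester bond is cleaved. Adding the fiber and taking out starch and cellulose thus cannot be told apart in a comparison with HFD. For cecum there were 6 arrays each of HFD and of HFD + inulin and 5 each of LFD and of HFD + inul PB, while liver had 6 arrays per diet. The study asked how dietary fibers that limit diet-induced obesity alter gene expression and the cecal bacteria, and these arrays cover its tissues for both fiber diets. All groups were whole tissue, so fewer cells of a type and less RNA per cell cannot be told apart. Labelling was primed from oligo(dT), which favours polyadenylated RNA. The labels number separate samples within a diet, and the P values measure the spread between these samples.

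A region probe was selected on detection and kept in a tissue if it was well above background, by the flag of the scanner software, on all arrays of at least 1 diet. In cecum 4242 of 16194 region probes were kept (26.2%), and in liver 3648 (22.5%). Of probes for curated RefSeq messenger RNAs, which carry an accession starting with NM_ and serve here as the class for comparison, 17633 of 26585 were kept in cecum (66.3%) and 15856 in liver (59.6%). Neither these counts nor the tissue split below were tested, since detection chose the members. On single arrays, between 25.9% and 33.1% of region probes were well above background in cecum and between 24.6% and 31.2% in liver. For NM_ probes the same share was 63.0% to 71.3% in cecum and 60.6% to 65.9% in liver, so the classes did not overlap on any of the 46 arrays.

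**Figure D1:**
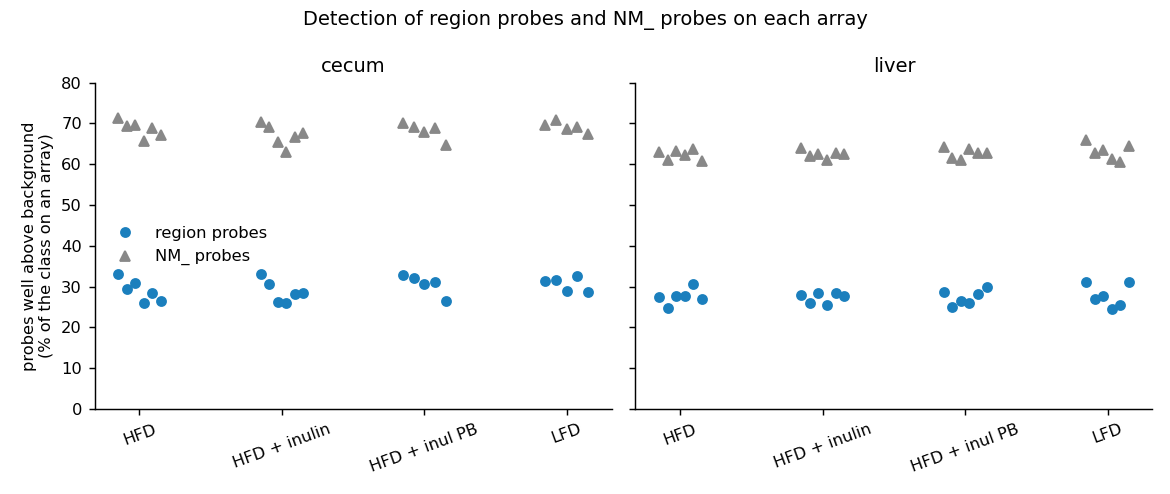
Share of region probes (circles) and of NM_ probes (triangles) well above background on each array, as a percent of the class, by diet in cecum and liver. Region probes lay between 24.6% and 33.1% on all 46 arrays and NM_ probes between 60.6% and 71.3%.

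No cecum array detected 7245 region probes (44.7%), and no liver array 7347 (45.4%); for NM_ probes these shares were 18.9% and 21.9%. Of the region probes kept in cecum, 2948 were detected on every array of all 4 diets and 412 were kept through 1 diet only. These single-diet probes were mostly kept through diets with 5 arrays, where the rule asks for fewer arrays: 184 through HFD + inul PB and 195 through LFD, against 15 through HFD and 18 through HFD + inulin. For NM_ probes these counts were 171, 287, 131 and 11, and the part of array number was not tested. In liver, with 6 arrays in every diet, 2917 region probes were on every array and 250 were kept through 1 diet only. Of these, 80 were kept through HFD, 44 through HFD + inulin, 57 through HFD + inul PB and 69 through LFD. A further 454 probes in cecum and 413 in liver were 1 array short of the rule. Just inside it in cecum, A_30_P01017426 was detected on all 5 LFD arrays, at log2 signals of 5.22 to 5.71, and on 4 arrays of each other diet. Just outside it, A_30_P01017437 was detected on 4 of 5 LFD arrays, at 2.47 to 9.47. In liver the latter probe was detected on 5 of 6 arrays of HFD, HFD + inul PB and LFD, while A_30_P01017433, just inside, was detected on all 6 HFD + inul PB arrays at 5.39 to 6.16.

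The kept region probes were dim. When all kept probes of cecum were divided into quartiles of mean signal, 50.1% of the kept region probes lay in the lowest quartile and 6.01% in the highest, against 17.8% and 28.2% of kept NM_ probes. The median SD within a diet was 0.32 on the log2 scale for kept region probes and 0.23 for kept NM_ probes in cecum.

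Arrays of the labelled tissues held the markers of those tissues. All 7 intestinal epithelium markers (among them Vil1 and Cdh17) were kept in cecum. Of these, 2 were also kept in liver and 5 were on no liver array. All 7 liver parenchyma markers (among them Alb and Apoa1) were kept in liver. Of these, 4 were also kept in cecum, and Alb was the 1 marker on no cecum array. The adipocyte markers (Adipoq, Plin1, Lep, Cfd and Cidec) varied widely within diets in cecum. The level of a marker list is the mean log2 signal of its kept markers, here 4 of 5. This level was 10.25 to 13.61 on HFD and 5.75 to 12.88 on HFD + inulin. On HFD + inul PB it was 5.26 to 10.82 and on LFD 5.12 to 13.34. In liver, 1 LFD array had the 1 kept of 4 exocrine pancreas markers at 11.87. On HFD + inul PB, 1 array had a mean of 12.13 over the 4 kept of 6 smooth muscle markers. Both arrays are given again beside the liver results. The part that such tissue plays in the region results was not tested, and cecal counts are given below with the adipocyte level as a covariate.

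The overlap of the tissues was counted next. Of the 4738 region probes kept in either tissue (29.3% of all), 3152 were kept in both (66.5%), 1090 in cecum only (23.0%) and 496 in liver only (10.5%). Of kept NM_ probes, 80.9% were kept in both tissues, 14.3% in cecum only and 4.73% in liver only. A kept probe may miss the rule in the other tissue by a single array, so the strict case was counted too. Of the region probes kept in cecum, 250 (5.89%) were on no liver array, and of those kept in liver, 105 (2.88%) were on no cecum array; for NM_ probes these shares were 4.66% and 1.77%. Each slide held 1 tissue, so tissue and slide cannot be told apart.

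**Figure D2:**
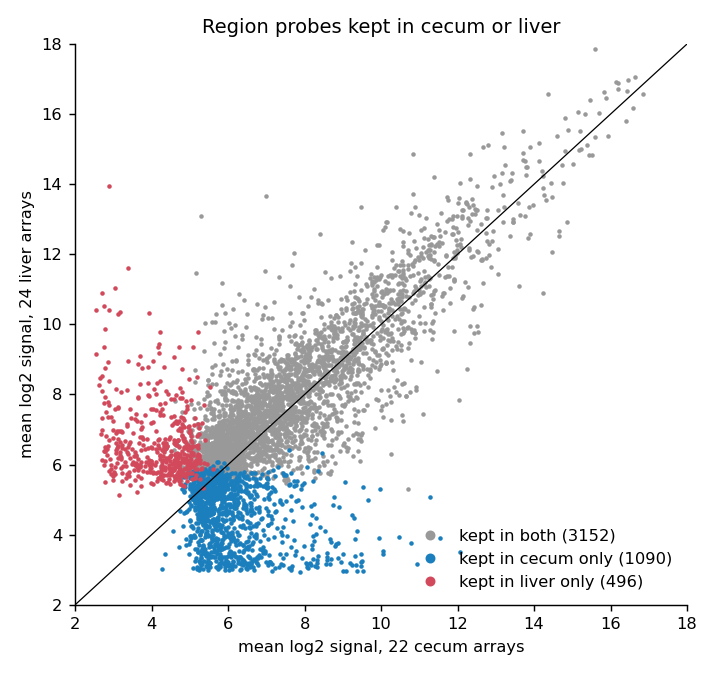
Mean log2 signal of the 4738 region probes kept in cecum or liver, over the 22 cecum arrays (x) and the 24 liver arrays (y), after normalisation over both tissues; colours give the tissue in which the probe was kept and the line marks equal signal. The 3152 probes kept in both tissues spread around the line, with a median cecum minus liver difference of -0.45, and probes kept in 1 tissue lie along the low edge of the other.

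The brightest probes detected in 1 tissue alone are described on the log2 scale after normalisation over both tissues, and the fold is a bound. It sets the mean of the tissue with signal against the lowest signal that counted as well above background on each array of the other tissue. Among cecum probes, A_30_P01033518 (chr10:83181374-83249774, letter F) ranged from 9.98 to 11.53 in cecum (median 10.90) and from 2.52 to 5.04 in liver (median 3.13), at least 64.2-fold higher in cecum. A_30_P01032460 lies in a region inside that one (chr10:83185606-83225506, F) and ranged from 8.50 to 10.11 in cecum and from 2.61 to 4.79 in liver, at least 23.4-fold higher. Both probes thus report the same locus, and all of their cecal arrays lay above all liver arrays.

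A_30_P01022855 (chr11:96175764-96176029, F) ranged from 10.18 to 11.37 in cecum and from 2.57 to 4.70 in liver, at least 57.4-fold higher. A_30_P01022099 (chr17:3346621-3347209, F) ranged from 8.53 to 10.56 in cecum and from 2.44 to 3.36 in liver, at least 24.1-fold higher. A_30_P01019563 (chr6:131272447-131303615, R) ranged from 8.88 to 10.14 in cecum and from 2.81 to 4.24 in liver, at least 23.3-fold higher. Each of these 5 cecum probes was also called higher on HFD + inul PB than on HFD in cecum, with log2 differences of 0.65 to 0.88. In 4 of the 5 regions all kept probes of the same letter were called with them. Of kept region probes 5.59% were called higher there, and of all probes 2.54%. A_30_P01033518 and A_30_P01032460 share a locus, and calls were not counted over all probes detected in cecum alone.

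Among liver probes, A_30_P01021733 (chr13:28537223-28539860, R) ranged from 13.59 to 14.45 in liver (median 13.94) and from 2.15 to 4.69 in cecum (median 2.76), at least 633-fold higher in liver. This probe stood far from the next. A_30_P01018128 (chr19:36699712-36763966, R) ranged from 9.60 to 12.03 in liver and from 2.16 to 5.11 in cecum, at least 81.7-fold higher. A_30_P01027939 (chr1:71939741-71947891, F) was at least 59.1-fold higher in liver, A_30_P01026163 (chr16:86770170-86874921, R) at least 53.7-fold and A_30_P01018953 (chr16:23543837-23560153, F) at least 51.9-fold. Of these 5, A_30_P01018128 was called on a diet in liver, with 9.40 to 11.13 on LFD against 10.90 to 11.82 on HFD, a log2 difference of -0.96 ± 0.28 (SE, limma adjusted P = 0.386).

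The 3152 region probes kept in both tissues had a median log2 difference of -0.45 between cecum and liver, that is toward higher signal in liver, where the median of NM_ probes was -0.00. Scaling each array to its 75th percentile in place of loess gave -0.57 for region probes and -0.18 for NM_ probes. Differences over 4-fold were found for 261 of them (8.28%), 88 higher in cecum and 173 higher in liver, against 16.0% of NM_ probes. All arrays of one tissue lay beyond all arrays of the other for 23.5% of region probes and for 40.7% of NM_ probes.

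Several probes can report the same region, so their likeness was described. In cecum, 3935 pairs of kept probes shared region and letter, and the median correlation of their values over arrays, after removing the diet means, was 0.42, with 43.0% of pairs over 0.5. For 2121 pairs of the same region with opposite letters the median was 0.12, with 12.5% over 0.5. In liver the medians were 0.51 and 0.17. These are descriptions over arrays that share slides and normalisation. Of the 1067 regions with probes of both letters, 459 had kept probes of 1 letter only in cecum and 366 of both; in liver 447 and 358. When at least 1 probe of a same-letter pair was called on HFD + inul PB, the pair had the same sign in 92.7% of 494 pairs, against 75.4% of 171 opposite-letter pairs, and of 182 same-letter pairs with both probes called, 2 had opposite signs. Several probes of 1 region are thus repeated measures and not independent members, and regions and loci are counted beside probes below.

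Each diet was compared with HFD by limma, and a probe was called by the criteria of the study's methods, a fold over 1.5 and unadjusted P under 0.01. Beside them stand calls at P under 0.05 after adjustment by Benjamini-Hochberg, taken over all 55681 probes. All 3 comparisons share the HFD arrays. Among the comparisons with HFD, calls among region probes were most numerous in cecum on HFD + inul PB, and most of them were higher.

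On HFD + inul PB, 237 of the 4242 kept region probes in cecum were called higher than on HFD (5.59%) and 48 lower (1.13%). Of all probes tested, 2.54% were called higher and 2.15% lower. Of kept NM_ probes 3.94% were called higher and 4.43% lower. Of the region calls, 83.2% were thus higher, a share read against the background and not tested between the classes. At adjusted P under 0.05, 238 region probes were higher and 53 lower, 6.86% of those kept. Of all probes 7.02% passed, of all kept probes 13.5% and of kept NM_ probes 14.9%. On HFD + inulin 71 kept region probes were called higher (1.67%) and 27 lower (0.64%), against 1.17% and 1.3% of all probes. The adjusted P was passed by 56, 1.32% of those kept. Of all probes 1.58% passed it, of all kept probes 3.03% and of kept NM_ probes 3.54%. Kept NM_ probes on HFD + inulin were called higher in 1.76% and lower in 2.61%.

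**Figure D3:**
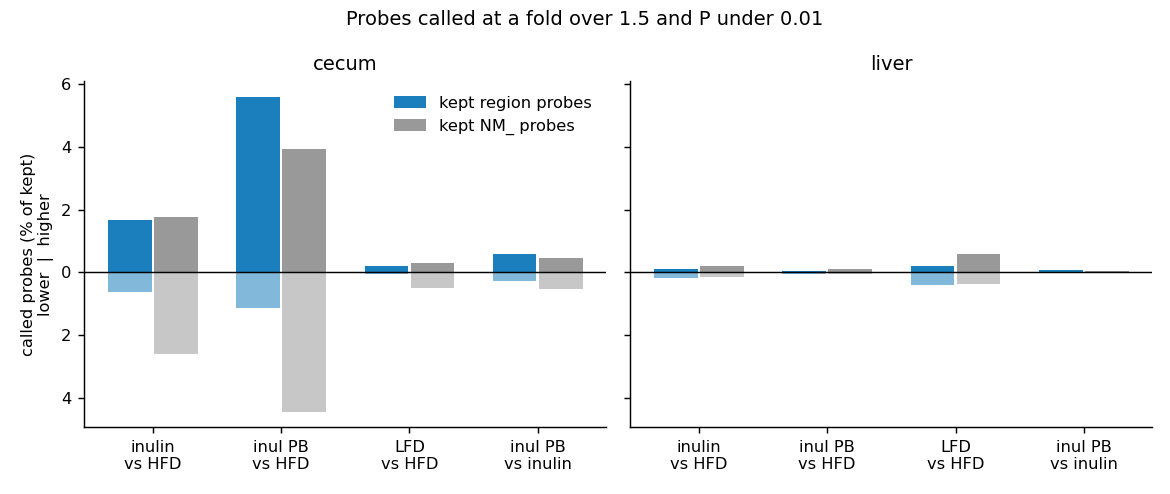
Percent of kept region probes (blue) and kept NM_ probes (grey) called at a fold over 1.5 and unadjusted P under 0.01, above 0 for higher and below 0 for lower, in each comparison in cecum and liver. On HFD + inul PB in cecum, 5.59% of region probes were higher and 1.13% lower, against 3.94% and 4.43% of NM_ probes, and liver bars stay under 1%.

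LFD differed little from HFD in the cecal region probes. There 9 were called higher (0.357% of all probes were) and 2 lower (0.282% of all probes), and none passed the adjusted P (0% of all probes did). An unadjusted P under 0.05 was found for 174, 4.10% of those kept, against 5.24% of all probes and 5.99% of all kept probes. Between the fiber diets, 25 were higher on HFD + inul PB than on HFD + inulin and 11 lower, against 0.467% and 0.336% of all probes, and 2 passed the adjusted P, against 0.0216% of all probes.

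Among the 2948 probes on every cecum array, calls on HFD + inul PB were 150 higher (5.09%) and 24 lower (0.81%), where all probes of the array kept through every diet had 3.98% and 3.00%. On HFD + inulin they were 35 (1.19%) and 9 (0.31%), against 1.56% and 1.18%. Over all 16194 region probes, kept or not, HFD + inul PB gave 360 higher and 74 lower, and HFD + inulin 132 and 51. Within quartiles of signal, 115 region probes were called higher and 31 lower in the lowest, 72 and 6 in the next, 44 and 5 in the one above and 6 and 6 in the highest. For kept NM_ probes, higher and lower calls from the lowest to the highest quartile were 120 and 257, 169 and 266, 212 and 178, and 193 and 80. The 237 rises on HFD + inul PB came from 137 regions in 121 loci and the 48 falls from 31 regions in 29 loci. Of the probes called higher, 146 bore the letter R and 91 the letter F, where the kept probes held 2242 and 1995.

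The median log2 difference of kept region probes from HFD was 0.14 on HFD + inul PB, 0.12 on HFD + inulin and 0.03 on LFD, where that of kept NM_ probes was -0.01, -0.01 and 0.00. Over the alternative settings the medians of region probes ran from 0.06 to 0.18, from 0.07 to 0.13 and from 0.01 to 0.06, the lowest on both fiber diets being those with the adipocyte covariate. Per array, the median shift from the HFD mean ranged from -0.07 to 0.11 on HFD, 0.02 to 0.21 on HFD + inulin, 0.06 to 0.20 on HFD + inul PB and -0.06 to 0.09 on LFD, so the diets overlapped on this measure. Within each slide the fiber arrays were above the HFD arrays: by 0.08, 0.09 and 0.11 on HFD + inulin and by 0.11, 0.08 and 0.20 on HFD + inul PB, the middle value of the latter resting on 1 array. LFD gave 0.03, -0.04 and 0.11 within the same slides. In liver the shift moved with the slide: all 8 arrays of 1 slide lay between -0.21 and -0.11 whatever the diet, and no diet had a shift of 1 sign on all slides except LFD, with -0.03, -0.04 and -0.05.

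**Figure D4:**
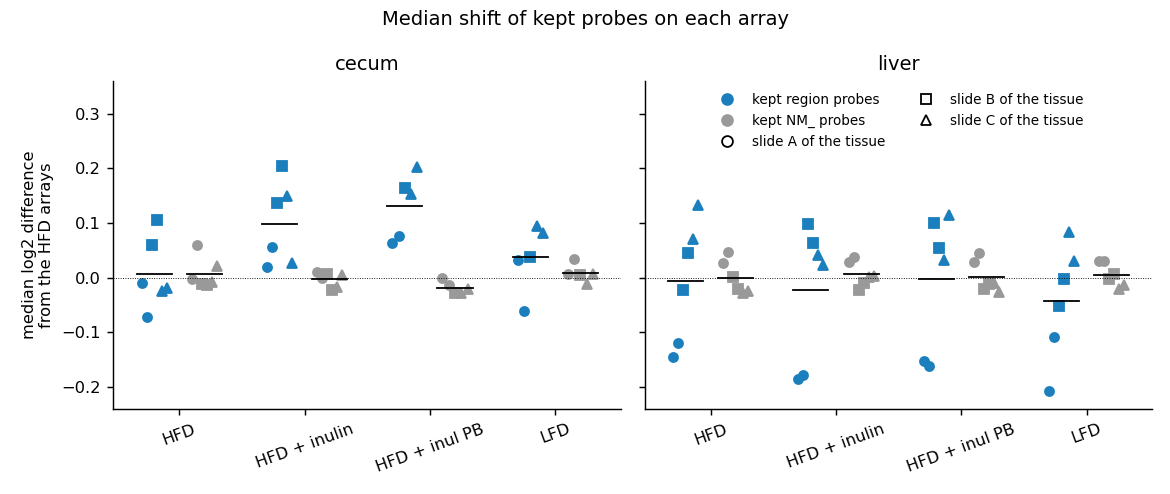
Median log2 difference of kept region probes (blue) and kept NM_ probes (grey) from the HFD arrays, 1 symbol per array, with the slide as the symbol's shape and the mean of a diet as a bar. In cecum region probes on HFD + inul PB lie between 0.06 and 0.20 and overlap with HFD (-0.07 to 0.11), and in liver the 8 arrays of slide A lie lowest on every diet.

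Of the 5 adipocyte markers in cecum, 3 were called lower on HFD + inul PB (Adipoq, Plin1 and Lep, median of the list -5.00) and none on HFD + inulin (median -2.47). Of 5 B and plasma cell markers, 2 were called lower on HFD + inul PB, 1 on HFD + inulin and 2 on LFD, with list medians of -0.66, -0.53 and -1.13. With the mean adipocyte level of each array as a covariate, a fit chosen after seeing the data, 112 kept region probes were called higher and 32 lower on HFD + inul PB with 33 past the adjusted P, and 47 and 18 on HFD + inulin with 6 past it. The higher direction remained the more frequent, and the number of adjusted calls on HFD + inul PB fell to 33 from 291. Since the adipocyte markers were themselves lower on that diet, this fit cannot tell adipocyte RNA from diet.

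Called probes were grouped in loci. Of 147 loci with a call on HFD + inul PB in cecum, 64 held at least 2 called probes (202 probes in all), and in 61 of the 64 all calls had 1 direction. At chr3:30032959-30080281, 12 of 13 kept probes were called higher, with log2 differences of 0.63 to 1.24, and all 13 were positive. At the neighbouring chr3:30099759-30133959, 7 of 10 were called higher (0.76 to 1.17). On HFD + inulin, 4 probes of each of these neighbours were called higher. At chr1:69531191-69570566, 7 of 8 kept probes were called higher on HFD + inul PB (1.43 to 1.85) and 6 on HFD + inulin (1.02 to 1.41). At chr10:83181374-83249918, the locus of the brightest probe detected in cecum alone, 8 of 14 were called higher on HFD + inul PB (0.60 to 0.88). Among falling loci, chr7:91558475-91733625 had 5 of 6 kept probes called lower on both fiber diets, and chr9:78104935-78118850 had 4 of 4.

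On both fiber diets, 67 kept region probes were called in the same direction, 53 higher and 14 lower, from 48 regions in 41 loci. Every array of both fiber diets lay beyond every HFD array for 9 of the rises and for 10 of the falls. These counts were not taken over all probes or NM_ probes, so they are not read as particular to region probes. The 10 falling probes came from 5 regions. The probes described next were selected for this separation and for size, so it is no further evidence. Values are log2 signals, and differences from HFD are log2 differences ± SE.

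A_30_P01029785 (chr15:59619971-59626514, R) had the largest fitted difference, but was kept through HFD + inul PB alone. That favours a higher signal there, so its values are a description. It ranged from 2.87 to 4.84 on HFD (median 3.93) and was not well above background on any of these arrays, while it ranged from 4.99 to 6.76 on HFD + inulin (median 5.91) and read 6.64, 6.33, 6.30, 6.37 and 7.38 on HFD + inul PB. The LFD arrays read 3.53, 4.11, 4.45, 5.60 and 4.58, overlapping with both. The signal was at least 1.85-fold higher on HFD + inulin and at least 3.06-fold higher on HFD + inul PB. Over the alternative settings the fitted difference on HFD + inul PB ran from 0.86 to 2.83.

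A_30_P01018841 (chr18:57104718-57105355, F) ranged from 4.18 to 5.25 on HFD (median 4.75), where 2 of 6 arrays were well above background, and from 5.86 to 6.65 on HFD + inulin (median 6.17). On HFD + inul PB it read 6.81, 7.04, 6.90, 7.0 and 7.62, above all HFD + inulin arrays. HFD did not meet the detection rule, so the probe was kept through other diets, which favours a higher signal there. Its fitted differences from HFD are thus a description: 1.47 ± 0.33 (SE) for HFD + inulin, 2.33 ± 0.34 for HFD + inul PB. All 3 kept probes of the region rose on HFD + inul PB, by 2.33 to 2.46. The fiber diets differed by 0.86 ± 0.34 for this probe (limma adjusted P = 0.718).

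A_30_P01031467 (chr8:105742425-105852975, R) ranged from 5.24 to 6.60 on HFD (median 5.99) and from 6.72 to 6.95 on HFD + inulin (median 6.87). On HFD + inul PB it read 6.95, 6.78, 7.10, 7.26 and 6.92, with LFD at 5.89, 6.50, 6.31, 6.46 and 6.22. Fiber arrays lay close together above the wider HFD group. The differences from HFD were 0.87 ± 0.16 (adjusted P = 0.00951) and 1.05 ± 0.17 (adjusted P = 0.00113) by limma.

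A_30_P01027147 (chr1:135956616-135957485, R) ranged from 8.28 to 8.88 on HFD (median 8.46) and from 8.95 to 9.52 on HFD + inulin (median 9.30), and read 9.44, 9.34, 9.38, 9.36 and 9.49 on HFD + inul PB. The differences were 0.74 ± 0.15 (adjusted P = 0.0143) and 0.88 ± 0.15 (adjusted P = 0.00197) by limma, and all 3 kept probes of the region were called on both diets (0.66 to 0.74 and 0.88 to 0.95). LFD arrays, at 9.08, 8.32, 8.73, 9.24 and 9.13, spread over HFD and fiber levels.

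A_30_P01024864 (chr4:45079022-45096897, R) also rose together with both other kept probes of its region and letter, by 0.74 to 0.90 on HFD + inulin and 0.83 to 0.92 on HFD + inul PB. It ranged from 5.83 to 6.41 on HFD, 6.49 to 7.45 on HFD + inulin and 6.64 to 7.21 on HFD + inul PB. A_30_P01023003 (chr3:126989696-127112471, R) ranged from 7.35 to 8.55 on HFD and from 8.71 to 9.43 on HFD + inulin, and from 8.72 to 9.27 on HFD + inul PB, with differences of 0.83 ± 0.18 and 0.95 ± 0.18 (SE, limma adjusted P = 0.0223 and 0.00433). The other kept probe of that region and letter differed by 0.20 and 0.19 and was not called. A_30_P01021014 (chr11:102878974-102888924, F) ranged from 6.86 to 7.41 on HFD, 7.57 to 8.69 on HFD + inulin and 7.52 to 8.32 on HFD + inul PB, 0.83 higher on both.

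A_30_P01026042 (chr19:61226425-61270975, R) was likewise kept through HFD + inul PB alone, and its values are a description. It was not well above background on any HFD array (4.58 to 5.17), and ranged from 5.22 to 5.93 on HFD + inulin and from 5.22 to 6.49 on HFD + inul PB. The signal was at least 1.38-fold higher on HFD + inulin, a call that was lost in 3 of 10 settings and on leaving out 7 of the 22 arrays, and at least 1.75-fold higher on HFD + inul PB. In liver the same probe was well above background on all 24 arrays.

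The 10 falls with all fiber arrays below all HFD arrays are described by 1 probe for each of their 5 regions. A_30_P01022821 (chr7:91558475-91733625, F) ranged from 7.27 to 8.26 on HFD (median 7.88) and from 3.73 to 7.23 on HFD + inulin (median 6.33), and read 6.09, 5.46, 5.08, 5.41 and 5.81 on HFD + inul PB. LFD, at 7.44, 7.83, 7.37, 7.17 and 7.84, stayed beside HFD. The differences were -1.77 ± 0.39 (adjusted P = 0.028) and -2.29 ± 0.41 (adjusted P = 0.00264) by limma, and all 5 kept probes of this region and letter were called lower on both fiber diets, by -1.20 to -2.17 and by -1.81 to -2.29.

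A pair of overlapping regions on chromosome 9 gave the brightest falls. A_30_P01028766 (chr9:78107225-78118850, F) ranged from 13.25 to 13.83 on HFD (median 13.47) and from 10.86 to 12.50 on HFD + inulin (median 12.22), and read 12.00, 11.93, 12.17, 11.97 and 11.35 on HFD + inul PB. A_30_P01020518 (chr9:78104935-78116974, F) ranged from 12.26 to 13.04 on HFD (median 12.65) and from 10.34 to 11.81 on HFD + inulin (median 11.35), and read 11.24, 11.17, 11.21, 11.26 and 10.66 on HFD + inul PB. Their differences were -1.52 ± 0.28 and -1.43 ± 0.26 on HFD + inulin and -1.62 ± 0.30 and -1.54 ± 0.28 on HFD + inul PB, with limma adjusted P between 0.00262 and 0.0104. The LFD arrays spread most, at 14.14, 13.71, 13.14, 12.45 and 13.90 for the former and 13.31, 12.88, 12.32, 11.71 and 13.13 for the latter. LFD replicate 4, the lowest LFD array for both probes, was also the array with the lowest adipocyte level (5.12). Both probes were called on both fiber diets in 10 of 10 settings, among them the fit with the adipocyte level as a covariate. The adipocyte level itself ran lower on the fiber diets, so that fit cannot tell adipocyte RNA from diet. The part of adipocyte RNA in these probes was not tested.

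A_30_P01025670 (chr16:43623581-43642715, F) ranged from 7.12 to 7.95 on HFD, 6.44 to 7.05 on HFD + inulin and 6.06 to 7.09 on HFD + inul PB, with differences of -0.82 ± 0.18 and -0.84 ± 0.19 (SE, limma adjusted P = 0.028 and 0.0107). All 9 kept probes of this region and letter were lower on both diets, of which 3 and 4 were called. A_30_P01026441 (chr14:77077374-77086910, F) ranged from 6.59 to 7.15 on HFD, 5.85 to 6.50 on HFD + inulin and 5.83 to 6.53 on HFD + inul PB. It differed by -0.62 ± 0.16 (adjusted P = 0.0528) and -0.74 ± 0.17 (adjusted P = 0.0101) by limma.

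**Figure D5:**
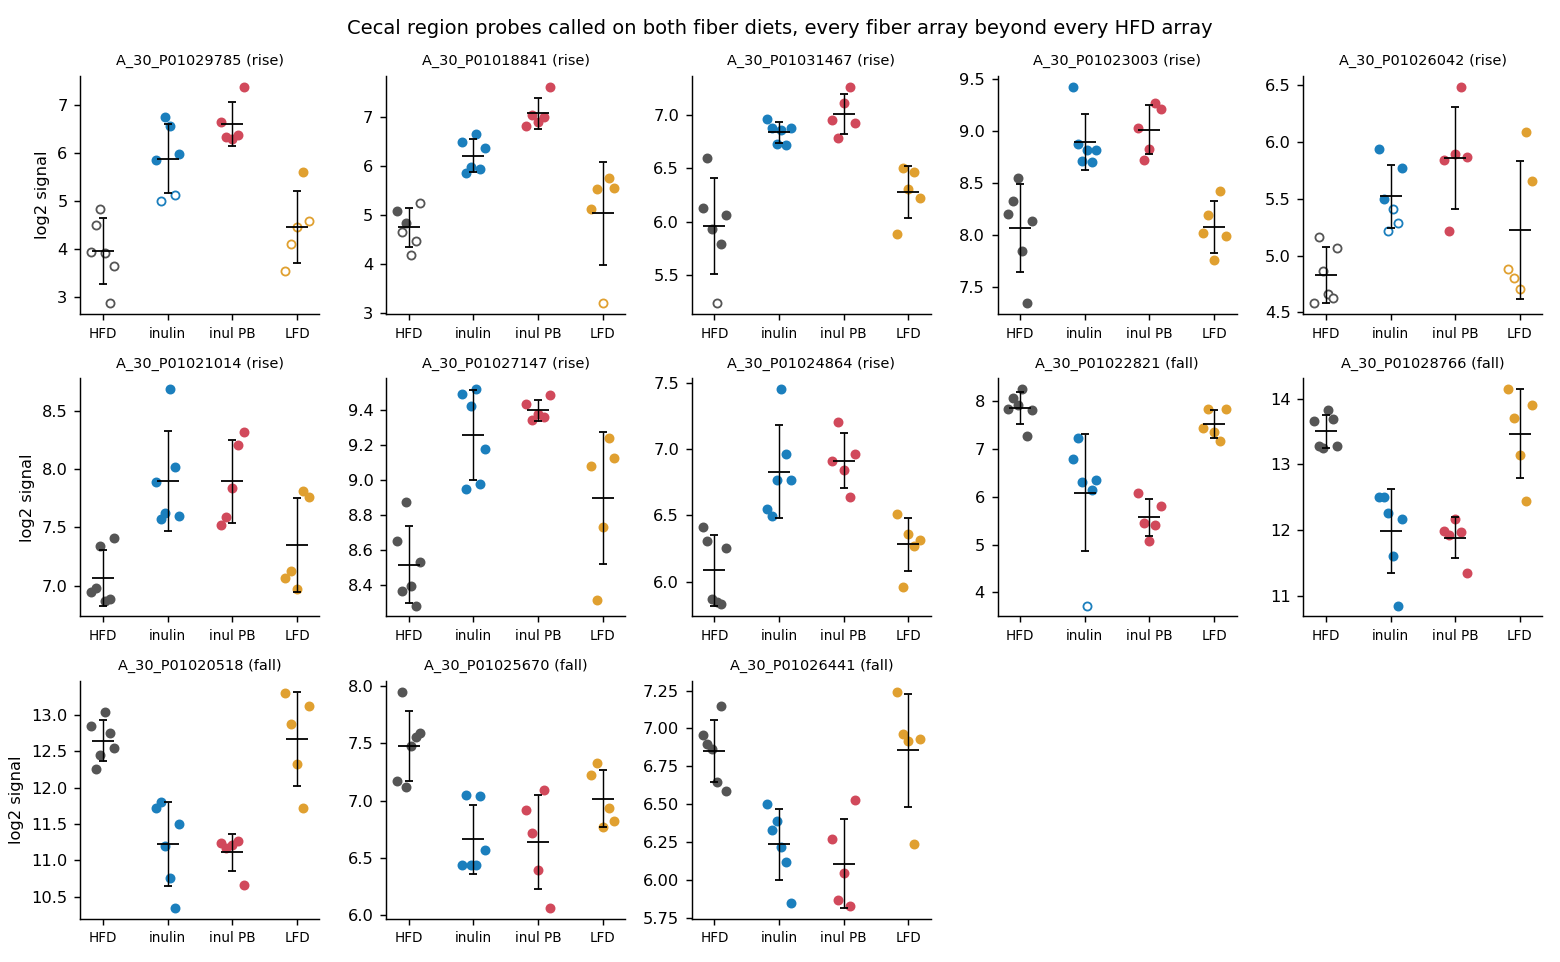
Log2 signal in cecum of the 13 region probes called on both fiber diets with every fiber array beyond every HFD array, 1 point per array, open where the probe was not well above background, with the mean and SD of a diet in black; each panel has its own axis. The 8 rises and 5 falls are separate from HFD on both fiber diets by selection, and LFD arrays overlap with HFD arrays in all 13 panels.

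Among probes called on HFD + inul PB and not on HFD + inulin, a region on chromosome 15 stood out. A_30_P01021952 (chr15:58327703-58329443, R) ranged from 4.06 to 5.73 on HFD (median 4.29) and from 3.15 to 6.37 on HFD + inulin (median 5.34), and read 7.19, 8.52, 7.85, 7.38 and 7.70 on HFD + inul PB and 5.00, 4.34, 4.90, 4.20 and 4.90 on LFD. Every HFD + inul PB array lay above every other cecum array. It was well above background on 1 of 6 HFD, 2 of 6 HFD + inulin, 5 of 5 HFD + inul PB and 0 of 5 LFD arrays, and being kept through HFD + inul PB alone it is given as a description. The fitted difference was 3.19 ± 0.42 from HFD, with 1.52 to 3.43 over the alternative settings, and 2.57 ± 0.42 from HFD + inulin. The other kept probe of the region, A_30_P01023068, ranged from 3.13 to 3.83 on HFD, 2.86 to 5.17 on HFD + inulin, 6.62 to 7.92 on HFD + inul PB and 2.72 to 3.86 on LFD. These were the 2 kept region probes past the adjusted P between the fiber diets, where 0 of the 2948 on every cecum array passed. Detection on HFD + inul PB selected A_30_P01021952, and A_30_P01023068 was also highest on that diet. Passing the adjusted P is thus no further evidence for them.

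A_30_P01025931 (chr12:113434415-113453161, F) ranged from 3.79 to 5.34 on HFD and from 4.06 to 5.48 on HFD + inulin, and read 7.42, 8.13, 5.62, 6.74 and 6.08 on HFD + inul PB. It too was kept through HFD + inul PB alone, with 1 of 6 HFD arrays well above background. The fitted difference from HFD was 2.39 ± 0.36, with 1.01 to 2.69 over the alternative settings. A_30_P01019563, one of the bright probes detected in cecum alone, ranged from 9.01 to 9.60 on HFD, 9.70 to 10.29 on HFD + inulin and 9.85 to 10.33 on HFD + inul PB. The difference from HFD was 0.73 ± 0.11 with HFD + inul PB (adjusted P = 0.000869 by limma). With HFD + inulin it was 0.57 ± 0.11 (adjusted P = 0.0108 by limma), a fold of 1.48 that is just under the criterion. The difference between its fiber diets, 0.16 ± 0.11, had an adjusted P = 0.863.

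Falls of this kind were also described for 3 regions. A_30_P01019185 (chr13:99868423-99920944, R) ranged from 12.84 to 13.28 on HFD, 12.14 to 13.03 on HFD + inulin and 12.18 to 12.34 on HFD + inul PB, a difference from HFD of -0.80 ± 0.14 on the latter (limma adjusted P = 0.00171). A_30_P01021250 (chr3:90425270-90435820, F) differed by -0.64 ± 0.13 and A_30_P01033589 (chr8:27259077-27268252, F) by -0.61 ± 0.13. On HFD + inulin the 3 falls were -0.51, -0.49 and -0.45, and their differences between the fiber diets had adjusted P of 0.774, 0.883 and 0.877. None of the 3 is shown to differ between the fiber diets. The call of A_30_P01019185 held in 10 of 10 settings, that of A_30_P01021250 in 7 and that of A_30_P01033589 in 6.

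On LFD the 11 called cecal probes came from 7 loci. At chr13:53097579-53113850, 4 of 5 kept probes were called higher (0.62 to 1.29). The 4 regions with the lowest P had differences of -1.01 ± 0.25 for A_30_P01022942 (chr1:92177032-92180487, F), 0.80 ± 0.20 for A_30_P01027948 (chr6:117829576-117834247, F), 0.66 ± 0.17 for A_30_P01025476 (chr2:25182970-25188091, R) and 0.75 ± 0.23 for A_30_P01026673 (chr2:156654934-156665632, R), with limma adjusted P of 0.663 to 0.839. A_30_P01022942 ranged from 5.12 to 6.63 on HFD and read 4.31, 4.46, 5.63, 5.02 and 4.42 on LFD, overlapping. A_30_P01027948 ranged from 4.18 to 5.26 on HFD and read 5.81, 5.70, 5.98, 5.67 and 5.62 on LFD, and it was also called higher on HFD + inulin, by 0.78 ± 0.19. It and A_30_P01025476 were kept through LFD alone, which favours a higher signal there.

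In liver the region probes responded little. Of 3648 kept, 4 were called higher and 7 lower on HFD + inulin (0.18% and 0.219% of all probes), 2 and 2 on HFD + inul PB (0.158% and 0.131%), 8 and 15 on LFD (0.424% and 0.293%), and 3 and 0 on HFD + inul PB against HFD + inulin (0.138% and 0.0593%). No kept region probe passed an adjusted P of 0.05 in any of these comparisons, where 0.0287% of all probes did on LFD and 0% in the others. At unadjusted P under 0.05 there were 144, 81, 242 and 55, that is 3.95%, 2.22%, 6.63% and 1.51% of those kept, against 3.79%, 3.13%, 6.77% and 2.29% of all probes. The shares of all probes include probes that were not kept. Of kept NM_ probes 94 were called higher and 59 lower on LFD, with 13 past the adjusted P. None of the 3152 region probes kept in both tissues was called against HFD on the same diet in cecum and in liver. Shared calls were not counted over all probes, and the liver calls are too few for this to separate the tissues.

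On LFD, A_30_P01033268 (chr4:44181997-44249172, F) had the lowest P in liver. It ranged from 6.52 to 7.36 on HFD (median 6.63) and from 7.15 to 8.01 on LFD (median 7.70), overlapping through 1 HFD array, with a difference of 0.94 ± 0.18 (limma adjusted P = 0.0757). A_30_P01021461 (chr2:119697845-119719245, F) ranged from 4.79 to 6.94 on HFD (median 5.31) and from 6.39 to 8.74 on LFD (median 7.70), a difference of 2.09 ± 0.42 (adjusted P = 0.097), and the other kept probe of the region was called with it at 2.50. A_30_P01021461 was kept through LFD alone, which favours a higher signal there. A_30_P01024115 (chr16:84708005-84708675, R) ranged from 6.51 to 6.87 on HFD and from 5.78 to 6.31 on LFD without overlap, a difference of -0.68 ± 0.15 (adjusted P = 0.182). A_30_P01023771 (chr9:58197113-58200614, F) ranged from 6.05 to 7.05 and from 5.43 to 6.34, a difference of -0.70 ± 0.17 (adjusted P = 0.24). LFD replicate 4, with the 1 kept exocrine pancreas marker at 11.87, is among these arrays. LFD replicates 3 and 4 were also the highest LFD arrays in the 2 kept adipocyte markers (11.20 and 10.36). The same held for the 4 kept smooth muscle markers (9.98 and 10.69) and the 3 kept B and plasma cell markers (8.12 and 7.87). Of the 5 B and plasma cell markers, 1 was called higher on LFD. The part of these tissues was not tested.

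On the fiber diets, A_30_P01026610 (chr17:84470764-84486339, R) was called on both. It ranged from 5.62 to 7.64 on HFD (median 6.53), 4.38 to 5.95 on HFD + inulin (median 5.08) and 4.68 to 5.78 on HFD + inul PB (median 5.24), with differences of -1.49 ± 0.37 and -1.35 ± 0.37. The probe was kept through HFD alone, which favours a higher signal there. Both groups overlapped with HFD, and the other kept probe of this region and letter differed by -0.26 and -0.27. On HFD + inulin, A_30_P01027165 (chr15:77575125-77585575, F) ranged from 4.55 to 6.19 on HFD and from 6.14 to 6.97 on HFD + inulin, a difference of 1.08 ± 0.27. A_30_P01029689 (chr11:69188111-69188571, R) fell by 0.79 and A_30_P01026765 (chr8:72663625-72673010, R) fell by 0.72 on the log2 scale. The limma adjusted P of all of these was 1.00.

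On HFD + inul PB in liver, A_30_P01018142 (chr5:106982442-107045717, R) ranged from 3.94 to 6.38 on HFD and from 6.07 to 7.11, a difference of 1.16 ± 0.35. A_30_P01020677 (chr19:5771425-5848475, F) ranged from 9.03 to 10.16 on HFD and from 8.38 to 9.61, a difference of -0.67 ± 0.22, and on HFD + inulin it ranged from 8.12 to 9.36 with -0.89 ± 0.22. A_30_P01019833 (chr3:40439525-40509975, F) differed by 0.65 ± 0.22, with an adjusted P of 1.00 by limma for all 3 probes. The value is from 5 arrays, since its spot on HFD + inul PB replicate 6 was marked as an outlier by the scanner software and left out. Its call was lost in 4 of 9 settings and on leaving out 9 of 24 arrays, and that of A_30_P01020677 on leaving out 6 of 24. HFD + inul PB replicate 4, with the 4 kept smooth muscle markers at a mean of 12.13, is in these groups.

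A difference in response between the tissues was tested in 1 model of all 46 arrays, as the cecal difference from HFD minus the liver difference. Of the 3152 region probes kept in both tissues, 31 passed an adjusted P of 0.05 on HFD + inul PB (0.98%). Of all probes 2.01% passed there, and of NM_ probes kept in both tissues 667 of 14981. On HFD + inulin 1 region probe passed (0.277% of all probes) and on LFD 0 (0.0359%). In the same order, 311, 254 and 135 region probes had an unadjusted P under 0.05. These unadjusted counts were not taken over all probes, so they are not read as particular to region probes. In 21 of the 31 the cecal change was the higher one. A_30_P01020518, the bright falling probe on chromosome 9, passed on both fiber diets, with a tissue difference of -1.56 (adjusted P = 0.0052) and -1.46 (adjusted P = 0.00389) by limma. In liver its own differences from HFD were 0.12 and -0.08. The probe of the overlapping region, A_30_P01028766, had a tissue difference of -1.63 on HFD + inul PB that did not pass (adjusted P = 0.238). A_30_P01025670 passed on HFD + inul PB with -1.10 (limma adjusted P = 0.00815).

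The largest tissue difference of the 31, chosen after its value was seen, was at chr19:5834117-5835940 (R). There A_30_P01025818 ranged in cecum from 9.98 to 10.96 on HFD and from 11.62 to 12.20 on HFD + inul PB, without overlap, and in liver from 9.24 to 11.05 and from 7.78 to 10.12. The cecal difference was 1.44 ± 0.27 and the liver difference -0.64 ± 0.37, and the tissue difference 2.10 ± 0.48 (limma adjusted P = 0.0132). A_30_P01019037 and A_30_P01029006 of the same region passed too, with 2.02 and 1.79. This region lies within that of A_30_P01020677, which bears the other letter and had a tissue difference of 1.15 on HFD + inul PB (adjusted P = 0.0314). A_30_P01024586 (chr13:34693404-34717987, R), also chosen after its value was seen, ranged in cecum from 5.62 to 7.01 on HFD and from 7.69 to 8.25 on HFD + inul PB, with a tissue difference of 1.5 ± 0.31 (adjusted P = 0.00567).

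Long non-coding RNAs that the array covers by name were looked up apart from the region probes. Of a list of 70 well known ones, 41 were measured, 29 were kept in cecum and 27 in liver. In cecum 2 were called lower on HFD + inulin, 1 lower on HFD + inul PB and 0 on LFD, and the list's medians were -0.08, -0.06 and -0.05, where those of all probes were 0.01, 0.00 and 0.00. None was called higher, and 0, 2 and 0 passed the adjusted P. The called ones were Mirg (-0.61 ± 0.21 on HFD + inulin, limma adjusted P = 0.165), an imprinted microRNA host, and 2 that were not kept: Dio3os, the antisense transcript of the deiodinase gene Dio3, detected on 5 of 22 arrays, and Igf2os, antisense to the growth factor gene Igf2, on 6 of 22. In liver, Neat1, the scaffold of nuclear paraspeckles, was at a mean of 13.35 on HFD and was called lower on HFD + inulin, by -1.14 ± 0.31 (limma adjusted P = 1.00), and on LFD, by -0.89 ± 0.31 (limma adjusted P = 0.521). Evx1os, on 3 of 24 arrays, was called lower on the same diets, and the medians of the list in liver were -0.07, -0.01 and 0.00. Of all probes in liver, 0.219% were called lower on HFD + inulin and 0.293% on LFD.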

How the data were processed

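The members and gene lists were chosen with earlier results of these data known. The authors deposited, per array, the Feature Extraction 10.7.3.1 output of 1-colour Agilent arrays, with intensity per spot on a linear scale, and a table of processed log2 values of the same arrays, made by cyclic loess per the authors' methods; its background treatment is not given in the sources used here. The scanner software had subtracted background from the processed intensity used here. Control spots and outlier spots were left out, saturated spots kept, log2 values normalised by cyclic loess within a tissue (span 0.7, 3 iterations; over all 46 arrays for tissue comparisons), and spots of a probe averaged to 55681 probes. All 46 arrays were used; per their methods the authors had excluded 1 HFD + inul PB and 1 LFD array of cecum, where 5 arrays of each were analysed here. Depth is not defined for arrays, whose number limits the precision.

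Limma (version 3.58.1, R 4.3.3) fitted the 4 diets of a tissue together, without covariates, and Benjamini-Hochberg adjustment was over all probes. Tables and figures used Python 3.11.15 with pandas 2.3.3, numpy 2.4.6 and matplotlib 3.10.9. The scripts were tested on simulated data. Probes were named by this rule, with 1 probe per region: in cecum up to 8 rises and 8 falls called on both fiber diets with all fiber arrays beyond all HFD arrays, 3 per direction with the lowest P on HFD + inul PB alone and 4 on LFD; in liver 4 per diet; 5 per tissue detected there alone; exceptions are stated. Gene symbols came from RefSeq accessions (27509 of 39487 probes other than region probes matched). Alternatives were 75th percentile scaling, normexp with offset 50 on the median spot signal (a mean signal was not used here), the authors' log2 values, a filter on detected probes, slide and replicate blocks, fits of 2 diets alone, and leaving out each array.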

Additional observations from a re-analysis of the deposited data

Results flagged for a closer look

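A single array stood apart from the rest of its diet in 12 of 180 groups. The groups were those of the described probes and of the median shift of kept region probes, and all 12 were of probes. Chance gives about 1 in 20 for independent groups of normal values, and the described probes are selected and not independent. The value is the gap to the nearest array as a share of the range of the group. In cecum on HFD + inul PB, replicate 5 stood apart for A_30_P01018841 (0.722, log2 signal 7.62 against 6.81 to 7.04), for A_30_P01028766 (0.713, 11.35 against 11.93 to 12.17) and for A_30_P01020518 (0.841, 10.66 against 11.17 to 11.26). On HFD + inulin, replicate 1 stood apart for A_30_P01023003 (0.765) and replicate 4 for A_30_P01022821 (0.688, 3.73 against 6.14 to 7.23) and A_30_P01019563 (0.649). On HFD, replicate 6 stood apart for A_30_P01021952 (0.658) and A_30_P01027948 (0.721), and on LFD replicate 3 for A_30_P01018841 (0.754).

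In liver, A_30_P01019833 had replicate 5 apart on HFD + inulin (0.633) and replicate 2 on HFD + inul PB (0.724). A_30_P01033268 had replicate 4 apart on HFD (0.741, 7.36 against 6.52 to 6.74).

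The diet difference itself differed between cecum and liver for 31 region probes on HFD + inul PB. Among the described probes these were A_30_P01020518 (-1.46, limma adjusted P = 0.00389), A_30_P01025670 (-1.10, adjusted P = 0.00815) and A_30_P01020677 (1.15, adjusted P = 0.0314), and on HFD + inulin A_30_P01020518 (-1.56, adjusted P = 0.0052).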

How the results depend on the processing

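Normexp background correction gave 34 calls among cecal region probes on HFD + inulin (98 in the report), 141 on HFD + inul PB (285), 5 on LFD (11) and 16 between the fiber diets (36), and in liver 3, 2, 8 and 0 (11, 4, 23 and 3). The authors' log2 values gave 48, 172, 5 and 18 in cecum, and in liver 3 on HFD + inulin, 13 on LFD and 0 between the fiber diets. The adjusted calls on HFD + inulin in cecum (56) were 27 with 75th percentile scaling, 128 when only probes well above background were tested, 93 with slide as a block and 2 when only the diets compared were fitted. Those on HFD + inul PB (291) were 522 when only probes well above background were tested, which adjusts over fewer probes. The adipocyte level as a covariate, chosen after seeing the data, gave 65 calls and 6 adjusted calls on HFD + inulin, and 144 and 33 on HFD + inul PB. Fitting only HFD and HFD + inul PB in liver gave 2 calls. A looser detection flag kept 7406 region probes in cecum and 6571 in liver, 73.3% of them in both tissues, and 75th percentile scaling gave a median tissue difference of -0.57. Slide as a block, chosen after seeing the data, gave 83 tissue differences on HFD + inul PB. The 3 cecal calls of the named long non-coding RNAs were 1 with 75th percentile scaling, 0 with normexp, 0 with the authors' values, 1 among probes well above background and 1 with slide as a block, all chosen after seeing the data. The cause of these changes was not tested, and over 48 differences of probes described for a diet, direction reversed in 0 of 1548 refits and the call was lost in 89; probes described only for a tissue or after their values were seen were not refitted.

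Leaving out each array in turn gave 75 to 140 calls on HFD + inulin in cecum (adjusted 21 to 86), 208 to 294 on HFD + inul PB (adjusted 159 to 355), 8 to 27 on LFD and 27 to 62 between the fiber diets. In liver the ranges were 10 to 16, 1 to 11, 16 to 36 and 1 to 8, for tissue differences on HFD + inul PB 14 to 46, and for the named long non-coding RNAs 0 to 3 in cecum and 1 to 5 in liver. In cecum, the adjusted count on HFD + inulin moved most when HFD replicate 2 (32), 4 (31) or 6 (23) was left out, and likewise for HFD + inulin replicate 3 (27), 4 (21) and 5 (86), and that on HFD + inul PB without its replicate 5 (159). The LFD count was 19 without HFD replicate 3, 17 without HFD replicate 4 and 27 without LFD replicate 2, and the count between the fiber diets 62 without HFD + inulin replicate 4. In liver, HFD + inul PB gave 7 calls without HFD replicate 2, 5 or 6, 1 without HFD replicate 4 and 11 without its own replicate 1, and LFD 36 without LFD replicate 2. Between the fiber diets in liver there were 1 without HFD + inulin replicate 2, 8 without HFD + inulin replicate 3, 5 without HFD + inul PB replicate 1 or 4 and 1 without replicate 2. Tissue differences numbered 20 without cecum HFD replicate 6, 14 without cecum HFD + inul PB replicate 5, 19 without liver HFD replicate 1, 16 without liver HFD + inul PB replicate 4 and 20 without its replicate 5.

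Same-numbered arrays did not deviate together throughout (correlations -0.33 to 0.52 in cecum, over 0.1 in 15 of 31 pairs, and -0.19 to 0.56 in liver, in 25 of 36), so the numbers were not taken as pairs. With the replicate block the counts were 115, 276, 16 and 35 in cecum (adjusted 72 and 287 on the fiber diets) and 18, 6, 25 and 5 in liver.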
